A study of Sus scrofa with 6 samples.

Results

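The BAF complex (also called SWI/SNF) moves nucleosomes along DNA, and 10 genes for its subunits were followed from porcine embryonic fibroblasts (PEFs) into the induced pluripotent stem cells (piPSCs) made from them. They are the rows of the deposited table whose gene name is SMARCA4, SMARCA2, SMARCC1, SMARCC2, SMARCD1, SMARCD3, ARID1A, ARID1B, ACTL6A or DPF2. All 10 names were found, each in 1 row, among the 18007 genes of the table. RNA was sequenced from 3 PEF lines (PEF5, PEF7 and PEF8), grown from the ear tips of embryos of embryonic day 90. The embryos came from the mating of a Longwhite boar (Large White in the study's methods) with a Meishan sow. RNA was also sequenced from the 3 piPSC lines (piPSC5, piPSC7 and piPSC8), each made from the PEF line of its number. They were made with lentiviruses that carry Oct4, Sox2, Klf4 and c-Myc under a doxycycline-dependent promoter, together with the transactivator M2rtTA. The piPSC colonies were picked and grown on mouse feeder cells, and fragments from feeders cannot be told apart from pig fragments in a table of values per gene. Whether a piPSC line is a single clone was not given in the sources used here. Each line was sequenced as 1 library, so p-values measure the spread between lines and nothing below that level.

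BAF uses the energy of ATP to slide or eject nucleosomes, and it is built by choosing, for most positions, among closely related subunits made from paralogous genes. SMARCA4 (BRG1) and SMARCA2 (BRM) are the alternative ATPase motors. SMARCC1 (BAF155) and SMARCC2 (BAF170) form the scaffold, SMARCD1 (BAF60A) and SMARCD3 (BAF60C) are alternative members of the BAF60 family, and ARID1A and ARID1B are the large DNA-binding subunits that define the canonical form of the complex. ACTL6A (BAF53A) is an actin-related subunit bound to the motor, and DPF2 (BAF45D) reads histone modifications through its PHD fingers. In mouse embryonic stem cells the complex is known to be assembled with BRG1, BAF155 and BAF60A, while BRM, BAF170 and BAF60C are more typical of differentiated cells.

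Values are FPKM, which is fragments per kilobase of gene and per 1000000 fragments of the library. Levels of different genes can be set side by side only as far as the length used for each gene holds. The recovered lengths were 12136 bases for ARID1A and 7363 for ARID1B, where the RefSeq coding sequences had 6861 and 7119 bases. The libraries held between 11010629 and 17836510 fragments. The 10 fibroblast markers were called lower in piPSCs without exception, and their summed level ran from 5957 to 8601 FPKM in PEFs and from 234 to 428 FPKM in piPSCs. Of 10 pluripotency markers, 7 were in the table, and their summed level was between 0.0703 and 0.202 FPKM in PEFs and between 2.96 and 9.16 FPKM in piPSCs. Nearly all of that level came from SOX2 and LIN28B, neither of which passed the test (limma adjusted p = 0.0626 and 0.0667). Both were nevertheless higher in every piPSC library than in any PEF library, with uneven levels among piPSC lines. SOX2 had 0, 1 and 2 fragments in PEF5, PEF7 and PEF8 and 288, 188 and 9 in piPSC5, piPSC7 and piPSC8. The lentiviruses carry Sox2, and in values per gene its fragments cannot be told apart from those of the cell's own SOX2. LIN28B had 1, 1 and 3 fragments in the PEF lines and 204, 18 and 529 in the piPSC lines. NANOG had 1 fragment in piPSC7 and 0 in the other libraries, and ESRRB, SALL4, EPCAM and CDH1 had at most 7 fragments in any piPSC library, so these defining markers of pluripotent cells were absent or near it under the piPSC label, while POU5F1, LIN28A and TDGF1 were not analysed here. The 6 proliferation markers were called higher in piPSCs, and their summed level was 117 FPKM for PEF5, 27.8 for PEF7 and 37.5 for PEF8, while piPSCs had 263 to 303 FPKM. Of the markers of other cell types, 3 trophoblast genes were called lower, and 0 of 4 neural genes and 0 of 1 muscle gene tested passed at an adjusted or an unadjusted p under 0.05 in limma, while no epithelial gene reached the filter. The summed levels in PEFs and piPSCs were 16.7 to 38.7 and 12.5 to 64.9 FPKM for 4 neural genes, 0.109 to 0.526 and 0.229 to 14.5 FPKM for 4 muscle genes (mostly DES in piPSC7), 0.147 to 1.05 and 0.0227 to 1.79 FPKM for 4 epithelial genes, and 3.85 to 10.1 and 0.0207 to 0.405 FPKM for 4 trophoblast genes. The lines are described as male, but the Y-linked gene DDX3Y had 3439 fragments in PEF8, 4207 in piPSC8 and 0 in the libraries of lines 5 and 7. Results were therefore also computed without both libraries of line 8.

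The 10 genes lie on 6 autosomes of Sscrofa11.1, and no paralogue pair shares a chromosome. Because the comparison of paralogues depends on telling their fragments apart, the coding sequences of each pair were compared in the RefSeq annotation of Sscrofa11.1. The longest run of identical bases was 23 bases for SMARCA4 and SMARCA2, 23 bases for SMARCC1 and SMARCC2, 18 bases for SMARCD1 and SMARCD3 and 26 bases for ARID1A and ARID1B, where it is a CAG-rich repeat. Reads were 150 bases long, and no stretch of 50 coding bases was shared by any pair. The windows around the longest runs are printed 5′ to 3′ on the coding strand for the pairs of the motor, the scaffold and the BAF60 position, with the shared run in capitals, to show how soon the paralogues part on both sides of it.
SMARCA4: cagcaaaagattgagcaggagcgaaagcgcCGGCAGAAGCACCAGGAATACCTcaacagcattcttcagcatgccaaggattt
SMARCA2: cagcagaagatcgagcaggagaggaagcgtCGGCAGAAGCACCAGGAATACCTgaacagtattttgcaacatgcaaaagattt
SMARCC1: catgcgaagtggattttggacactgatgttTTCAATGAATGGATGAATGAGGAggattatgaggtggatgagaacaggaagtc
SMARCC2: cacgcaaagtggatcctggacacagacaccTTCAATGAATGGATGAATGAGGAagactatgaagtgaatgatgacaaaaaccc
SMARCD1: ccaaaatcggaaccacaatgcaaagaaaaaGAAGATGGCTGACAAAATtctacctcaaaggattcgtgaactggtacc
SMARCD3: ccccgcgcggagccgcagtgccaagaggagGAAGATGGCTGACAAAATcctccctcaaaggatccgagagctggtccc
The windows of SMARCA4 (coding bases 1375 to 1457, plus strand) and SMARCA2 (coding bases 1252 to 1334, minus strand) each span an exon junction and fall on chr2:69739393-69739437 with chr2:69740764-69740801, and on chr1:219774601-219774645 with chr1:219773187-219773224. Those of SMARCC1 and SMARCC2 each lie in a single exon on the minus strand, at chr13:30524914-30524996 and chr5:21579745-21579827. The capitals of SMARCD1 and SMARCD3 are at chr5:15994084-15994101 and chr18:5984278-5984295, both on the plus strand and inside an exon.

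Of the 10 BAF genes, 5 were higher in piPSCs (SMARCA4, SMARCC1, SMARCD1, ARID1A and ACTL6A), 2 were lower (SMARCA2 and SMARCD3) and 3 did not pass the test (SMARCC2, ARID1B and DPF2). In the whole table, 30.3% of the 12428 genes tested were called higher and 21.5% lower, 51.7% in all, so calls were common in this comparison. The same 7 BAF genes were those whose PEF and piPSC libraries did not overlap, 5 above and 2 below, where 37.3% of all genes tested were above without overlap and 26.8% below, 64.1% in all. A call is an adjusted p under 0.05 in limma on log2(FPKM + 1), with Benjamini-Hochberg adjustment over all genes tested, and fold changes on that scale understate the change of low genes. All 10 BAF genes passed the filter of a mean of 0.5 FPKM. A change of at least 2-fold on this scale was reached by SMARCA4, SMARCC1 and SMARCD1 among the higher genes and by SMARCD3 among the lower ones, against 20.2% and 16.7% of all genes tested. The median log2 fold change was 0.59 for the 10 genes and 0.20 for all genes tested. When each library was rescaled to its median ratio over genes, these medians were 0.34 and -0.01, ARID1B was also called lower (log2 fold change -0.54, limma adjusted p = 0.0447), and over all genes the calls turned from 3763 higher and 2667 lower to 2826 higher and 3257 lower. SMARCA4 (0.77 on the log2 scale) and SMARCD1 (0.91) then fell short of 2-fold, and SMARCA2 (-1.09) reached it. With libraries brought to equal sums of FPKM these values were 0.74, 0.92 and -1.26. There each sum was set to 1000000 before 1 was added, so the added 1 weighed less than in the deposited FPKM. SMARCC1 and SMARCD3 stayed beyond 2-fold under both scalings. Without line 8, 3 genes were called higher and the same 2 genes lower, since SMARCA4 (0.95 on the log2 scale, limma adjusted p = 0.0529) and ACTL6A (0.74, limma adjusted p = 0.0768) missed the threshold with 2 libraries a group. In bulk RNA, fewer cells that express a gene and less of its RNA per cell cannot be told apart.

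**Figure D1:**
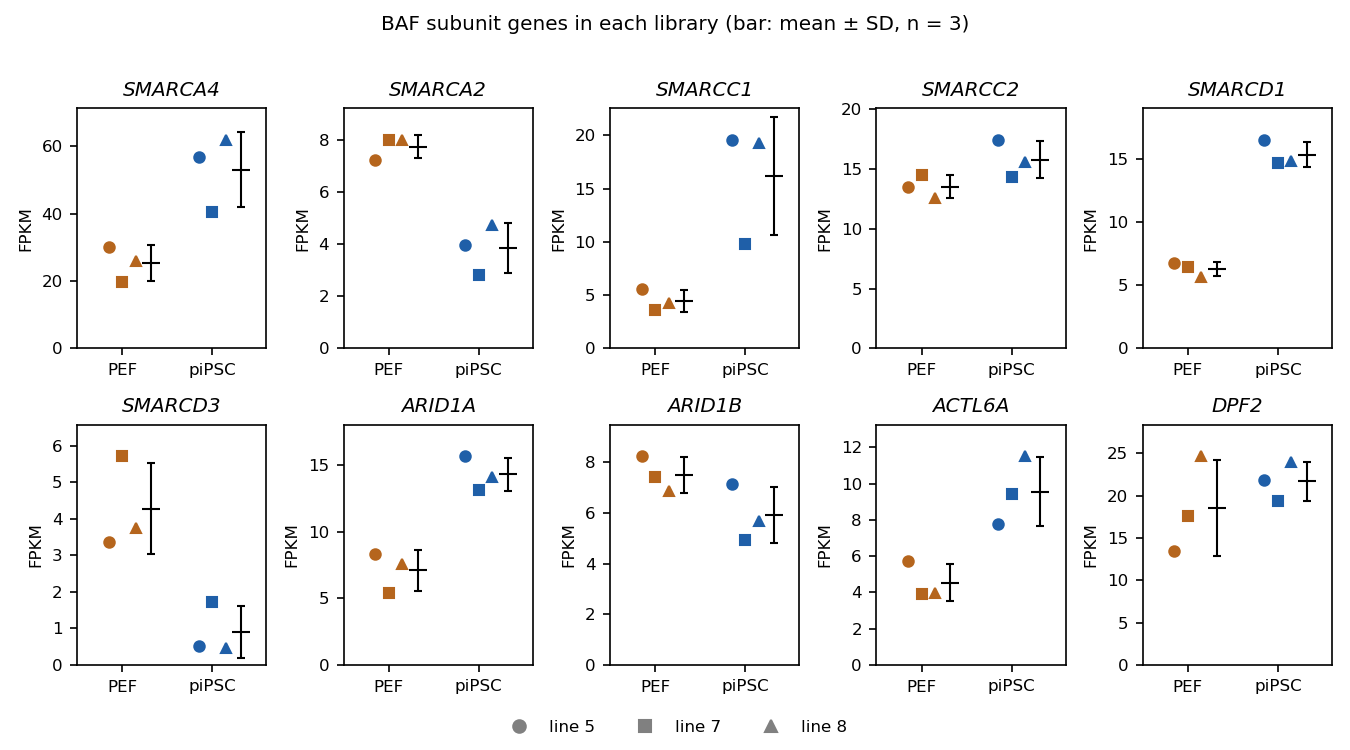
FPKM (vertical axes, linear from 0) of the 10 BAF genes in each of the 3 PEF and 3 piPSC libraries, with the line marked by the symbol and the mean ± SD (n = 3) beside the points. For SMARCA4, SMARCC1, SMARCD1, ARID1A and ACTL6A every piPSC library is above every PEF library, for SMARCA2 and SMARCD3 every one is below, and for SMARCC2, ARID1B and DPF2 the groups overlap.

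The motor genes moved in opposite directions. SMARCA4 (ENSSSCG00000013629, chromosome 2 from 69717313 to 69810295, plus strand) had 30.2, 19.7 and 25.9 FPKM in PEF5, PEF7 and PEF8 and 56.7, 40.6 and 61.9 FPKM in piPSC5, piPSC7 and piPSC8. The lowest piPSC library, piPSC7, stood above the highest PEF library, PEF5. The mean rose 2.1-fold, from 25.3 ± 5.31 to 53.1 ± 11.11 FPKM (SD, n = 3), which limma put at 1.04 ± 0.23 on the log2 scale (SE, adjusted p = 0.0102). SMARCA2 (ENSSSCG00000005232, chromosome 1 from 219624776 to 219815480, minus strand) had 7.22, 7.999 and 7.97 FPKM in the PEF lines and 3.97, 2.82 and 4.74 FPKM in the piPSC lines. All PEF values were close together and above all piPSC values. The mean was 2.01-fold lower in piPSCs, 7.73 ± 0.446 against 3.84 ± 0.963 FPKM (SD, n = 3), and limma put the change at -0.87 ± 0.21 on the log2 scale (SE, adjusted p = 0.0141). Between 1810 and 4699 fragments per library stand behind SMARCA4 and between 242 and 964 behind SMARCA2.

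Of the scaffold genes, SMARCC1 had the largest increase among the 10 BAF genes, while its paralogue SMARCC2 did not pass the test. SMARCC1 (ENSSSCG00000011340, chromosome 13 from 30407858 to 30576448, minus strand) had 5.53, 3.58 and 4.24 FPKM in PEF5, PEF7 and PEF8 and 19.6, 9.83 and 19.2 FPKM in the piPSC lines. As for SMARCA4, the lowest piPSC value was that of piPSC7 and the lowest PEF value that of PEF7. The mean rose 3.65-fold, from 4.45 ± 0.996 to 16.2 ± 5.53 FPKM (SD, n = 3), or by 1.62 ± 0.30 on the log2 scale in limma (SE, adjusted p = 0.00537), and 9.43% of all genes tested had a larger increase. SMARCC2 (ENSSSCG00000000382, chromosome 5 from 21560934 to 21636211, minus strand) had 13.5, 14.5 and 12.6 FPKM in PEFs and 17.5, 14.4 and 15.6 FPKM in piPSCs. The groups overlapped, since piPSC7 lay just under PEF7. The log2 fold change was 0.21 (95% interval from -0.16 to 0.57, limma adjusted p = 0.287) as deposited, and it turned to -0.050 with libraries rescaled by the median ratio and to -0.10 with equal sums. The span listed for SMARCC2 overlaps 4 other genes of the table (MYL6, SLC39A5, NABP2 and RNF41) and starts well upstream of the RefSeq start (a difference of -49421 bases, listed minus RefSeq, along the gene). The spans of SMARCC1 (2 genes, CSPG5 and ENSSSCG00000037936), SMARCD1 (GPD1) and SMARCD3 (CHPF2) also overlap other genes. How fragments in overlaps were counted is not stated, and the library kit does not mark strand.

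The BAF60 genes changed the most in relation to each other. SMARCD1 (ENSSSCG00000000215, chromosome 5 from 15992459 to 16007793, plus strand) had 6.81, 6.45 and 5.69 FPKM in PEF5, PEF7 and PEF8 and 16.5, 14.7 and 14.9 FPKM in piPSC5, piPSC7 and piPSC8. The libraries of each group lay close together and the groups were far apart. The mean rose 2.43-fold, from 6.31 ± 0.567 to 15.4 ± 1.01 FPKM (SD, n = 3), with the lowest adjusted p of the 10 genes (1.16 ± 0.16 on the log2 scale in limma, SE, adjusted p = 0.00164). SMARCD3 (ENSSSCG00000016435, chromosome 18 from 5958502 to 5990025, plus strand) had 3.37, 5.71 and 3.75 FPKM in PEFs and 0.521, 1.73 and 0.475 FPKM in piPSCs. Line 7 had the highest value in both groups. These values rest on 184, 292 and 174 fragments in PEFs and on 24, 63 and 16 fragments in piPSCs. The mean was 4.71-fold lower, 4.28 ± 1.25 against 0.909 ± 0.712 FPKM (SD, n = 3), and limma put the change at -1.50 ± 0.33 on the log2 scale (SE, adjusted p = 0.0094). The fold is larger than the log2 value because of the added 1 FPKM, and with a pseudocount of 0.1 the log2 fold change was -2.30. SMARCD2, the third gene of this family, was not analysed here.

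ARID1A and ARID1B, which had similar FPKM in PEFs, differed in piPSCs. ARID1A (ENSSSCG00000003559, chromosome 6 from 84049087 to 84127790, plus strand) had 8.33, 5.37 and 7.59 FPKM in the PEF lines and 15.7, 13.2 and 14.1 FPKM in the piPSC lines. No piPSC value came near the PEF values. The mean rose 2.01-fold, from 7.10 ± 1.54 to 14.3 ± 1.26 FPKM (SD, n = 3), or by 0.93 ± 0.20 on the log2 scale in limma (SE, adjusted p = 0.00899). ARID1B (ENSSSCG00000004064, chromosome 1 from 9791634 to 10227947, minus strand) had 8.24, 7.42 and 6.85 FPKM in PEFs and 7.14, 4.95 and 5.69 FPKM in piPSCs. Its groups overlapped through piPSC5, which lay above PEF8. The log2 fold change was -0.31 (95% interval from -0.76 to 0.15, limma adjusted p = 0.218).

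ACTL6A rose, while DPF2 did not pass the test and its values were spread widely among the PEF lines. ACTL6A (ENSSSCG00000011762, chromosome 13 from 117529732 to 117628488, plus strand) had 5.71, 3.90 and 3.99 FPKM in PEF5, PEF7 and PEF8 and 7.75, 9.43 and 11.5 FPKM in piPSC5, piPSC7 and piPSC8. Line 5 held both the highest PEF value and the lowest piPSC value. The mean rose 2.11-fold, from 4.53 ± 1.02 to 9.56 ± 1.88 FPKM (SD, n = 3), or by 0.93 ± 0.22 on the log2 scale in limma (SE, adjusted p = 0.0136), and the adjusted p was 0.0522 when libraries were brought to equal sums. The span listed for ACTL6A also starts upstream of the RefSeq start (-68683 bases on the same measure) and overlaps MRPL47 on the other strand. DPF2 (ENSSSCG00000012995, chromosome 2 from 6867962 to 6886499, minus strand) had 13.5, 17.6 and 24.7 FPKM in PEFs and 21.9, 19.3 and 24.0 FPKM in piPSCs. The highest of all values was that of a fibroblast line, PEF8. The log2 fold change of DPF2 was 0.25 (95% interval from -0.32 to 0.81, limma adjusted p = 0.402), and it turned to -0.012 with the median ratio and to -0.059 with equal sums.

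Since a ratio of paralogues within a library does not depend on how libraries are scaled, the share of each paralogue in the summed FPKM of its pair was computed for each library. SMARCA4 made up 80.7%, 71.1% and 76.4% of the motor pair in PEF5, PEF7 and PEF8 and 93.5%, 93.5% and 92.9% in piPSC5, piPSC7 and piPSC8. The piPSC lines were almost alike, with a mean of 93.3% ± 0.336 against 76.1% ± 4.83 in PEFs (SD, n = 3). SMARCC1 made up 29.0%, 19.8% and 25.2% of the scaffold pair in PEFs and 52.9%, 40.6% and 55.3% in piPSCs. SMARCC2 thus had the higher FPKM of the scaffold genes in each PEF library. In piPSCs the FPKM of the pair was near balance, with SMARCC1 ahead in lines 5 and 8 and behind in line 7. SMARCD1 made up 66.9%, 53.0% and 60.3% of its pair in PEFs and 96.9%, 89.5% and 96.9% in piPSCs. ARID1A made up 50.3%, 42.0% and 52.6% of its pair in PEFs and 68.7%, 72.7% and 71.2% in piPSCs. In each of the pairs, every piPSC library had a larger share of the first-named paralogue than any PEF library. Separation of the groups was common here, with no overlap for 64.1% of single genes tested. How often ratios of other gene pairs separate the groups was not computed.

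The log2 ratio of SMARCA4 to SMARCA2 averaged 1.69 ± 0.38 over the PEF lines and 3.80 ± 0.08 over the piPSC lines (SD, n = 3), with a difference of 2.11. For SMARCC1 to SMARCC2 it was -1.63 ± 0.37 and -0.03 ± 0.46, a difference of 1.6. For SMARCD1 to SMARCD3 it was 0.60 ± 0.42 and 4.35 ± 1.09, a difference of 3.75, the widest of the pairs. For ARID1A to ARID1B it was -0.10 ± 0.32 and 1.28 ± 0.14, a difference of 1.38. Each difference was in the same direction within each of the 3 lines, and the smallest within a line was 1.12, for the ARID1 genes of line 5. A two-sided exact permutation test over libraries gave p = 0.1 for each of the pairs, which is the smallest value that 3 libraries against 3 can give. Within PEFs, PEF7 had the lowest log2 ratio for each of the pairs, while PEF5 had the highest for 3 of them and PEF8 for the ARID1 genes. The summed level of the proliferation markers was also lowest in PEF7 and highest in PEF5. Among piPSCs that sum was lowest in piPSC7. That library had the lowest log2 ratio of the piPSCs for the scaffold and BAF60 pairs but the highest for the motor and ARID1 pairs. The part of proliferation in these ratios was not tested.

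**Figure D2:**
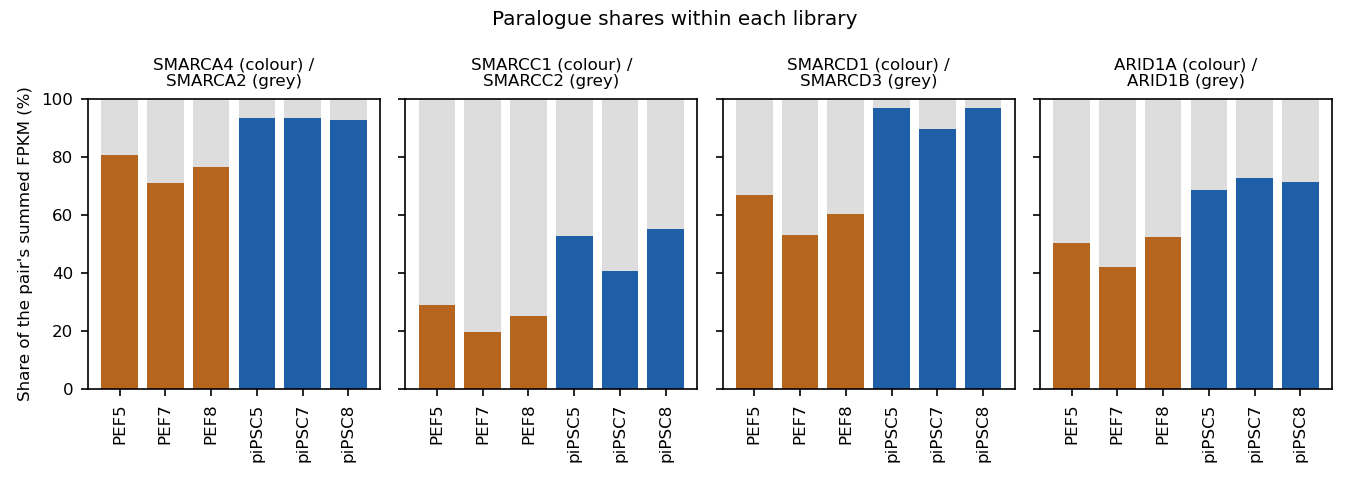
Share of each paralogue in the summed FPKM of its pair (vertical axis, percent, from 0 to 100) in the 6 libraries, with the first-named gene in colour (brown for PEF, blue for piPSC) and the second in grey. The coloured part is larger in every piPSC library than in any PEF library for all 4 pairs, and SMARCD1 reaches 96.9% in piPSC5 and piPSC8.

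As deposited, the summed level of each of the pairs was higher in every piPSC library than in any PEF library, but unlike the shares these sums depend on how libraries are scaled. Among single genes tested, 37.3% were above without overlap. SMARCA4 and SMARCA2 together had 33.0 ± 4.95 FPKM in PEFs and 56.9 ± 12.1 FPKM in piPSCs, SMARCC1 and SMARCC2 18.0 ± 1.13 and 32.01 ± 6.85 FPKM, SMARCD1 and SMARCD3 10.6 ± 1.40 and 16.3 ± 0.870 FPKM, and ARID1A and ARID1B 14.6 ± 1.89 and 20.2 ± 2.38 FPKM (SD, n = 3). All 10 genes summed to 102, 92.2 and 103 FPKM in PEF5, PEF7 and PEF8 and to 167, 131 and 172 FPKM in piPSC5, piPSC7 and piPSC8. The exact permutation test gave its smallest value, p = 0.1, for each of these sums as deposited. With libraries brought to equal sums of FPKM, a scaling added after seeing the data, the groups stayed apart for SMARCD1 and SMARCD3 (exact p = 0.1) and overlapped for the other pairs and for all 10 genes. The exact permutation p was then 0.2 for the motor pair, 0.2 for the scaffold pair, 0.5 for the ARID1 pair and 0.2 for all 10 genes, and the log2 difference of the ARID1 pair fell from 0.47 to 0.15.

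In both groups the order of FPKM, which rests on the length used for each gene, was led by SMARCA4 and then DPF2. In PEFs the ranges of these 2 genes overlapped, and in piPSCs they did not, with SMARCA4 at 40.6 FPKM or more and DPF2 at 24.0 FPKM or less. SMARCC2 followed in PEFs, at 12.6 to 14.5 FPKM, overlapping DPF2 and apart from the next gene. SMARCA2, ARID1B, ARID1A and SMARCD1 came next, with means between 6.31 and 7.73 FPKM, and each overlapped its neighbour in the order. ACTL6A, SMARCC1 and SMARCD3 were the lowest in PEFs, with means from 4.28 to 4.53 FPKM and overlapping ranges. Each of them reached into the range of ARID1A, and ACTL6A and SMARCD3 also just touched that of SMARCD1. In piPSCs, SMARCC1, SMARCC2, SMARCD1 and ARID1A had means between 14.3 and 16.2 FPKM and overlapped one another, with SMARCC1 also reaching DPF2. ACTL6A, which overlapped SMARCC1, followed at 7.75 to 11.5 FPKM. ARID1B and SMARCA2 came after it, and these did not overlap each other, while SMARCD3 was the lowest, at 0.475 to 1.73 FPKM.

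Within lines, 8 of the 10 genes had ratios of the same sign in all 3 comparisons of a piPSC line with the PEF line it was made from. The share of all genes with the same sign in the 3 lines was not computed. It is at least 64.1% of the genes tested, since genes without overlap between groups have the same sign in every line. The log2 ratios of (FPKM + 1) in lines 5, 7 and 8 were 0.89, 1.01 and 1.23 for SMARCA4 and -0.72, -1.24 and -0.65 for SMARCA2. They were 1.65, 1.24 and 1.95 for SMARCC1, and 1.17, 1.08 and 1.24 for SMARCD1, the narrowest range among the called genes. SMARCD3 had -1.52, -1.30 and -1.69. ACTL6A had the widest range of the 10 genes, 0.38, 1.09 and 1.33, with the smallest increase in line 5. With 1 library against 1, these ratios have no replicate check. With the line as a replicate block in limma, the same 5 genes were called higher and the same 2 lower.

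**Figure D3:**
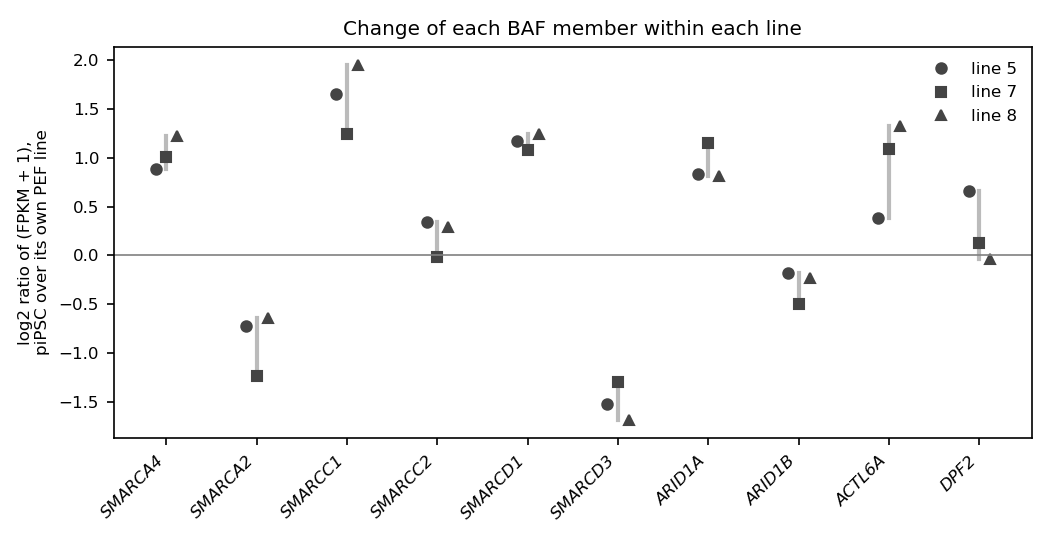
Log2 ratio of (FPKM + 1) of each piPSC line over its own PEF line (vertical axis) for the 10 BAF genes, with symbols for lines 5, 7 and 8 and a grey bar over their range. SMARCA4, SMARCC1, SMARCD1, ARID1A and ACTL6A are above 0 in every line, SMARCA2, SMARCD3 and ARID1B below 0 in every line, and SMARCC2 and DPF2 on both sides of it.

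The windows of 250 bases before the RefSeq start of each BAF gene were read from Sscrofa11.1. Those of 3 genes from the pairs whose paralogues were called in opposite directions are printed 5′ to 3′ on the strand of the gene, with each GC box (GGGCGG on either strand) in capitals.
SMARCA2: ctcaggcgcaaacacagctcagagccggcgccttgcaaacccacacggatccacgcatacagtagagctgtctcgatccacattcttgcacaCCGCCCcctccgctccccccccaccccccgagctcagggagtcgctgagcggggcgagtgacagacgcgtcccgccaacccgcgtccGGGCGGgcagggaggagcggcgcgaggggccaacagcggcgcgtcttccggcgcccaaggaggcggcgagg
SMARCD1: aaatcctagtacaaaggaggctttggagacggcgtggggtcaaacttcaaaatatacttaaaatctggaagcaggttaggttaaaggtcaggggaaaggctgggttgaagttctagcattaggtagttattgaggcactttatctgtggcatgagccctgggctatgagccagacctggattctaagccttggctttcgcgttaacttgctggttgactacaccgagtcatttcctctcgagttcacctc
SMARCD3: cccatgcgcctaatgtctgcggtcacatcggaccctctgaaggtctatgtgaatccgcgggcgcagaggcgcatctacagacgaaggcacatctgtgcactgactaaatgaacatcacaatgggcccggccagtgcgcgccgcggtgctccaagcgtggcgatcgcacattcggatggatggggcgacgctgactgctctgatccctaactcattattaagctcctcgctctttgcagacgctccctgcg
They lie at chr1:219815439-219815688 (minus strand), chr5:15992098-15992347 (plus strand) and chr18:5958216-5958465 (plus strand). Over all 10 BAF genes the windows hold between 6 (SMARCD1) and 43 (ARID1B) CpG dinucleotides, where the median of 19556 such windows of protein-coding genes was 12. The windows of ARID1A, ARID1B, SMARCC2 and ACTL6A lie wholly inside the deposited gene spans, which start further upstream than RefSeq. Those of SMARCA2 and SMARCC1 do so in part. A GC box was found in 8 of the 10 BAF windows and in 45.9% of all windows, and neither SMARCD1 nor SMARCD3 held one. The CCAAT box (CCAAT) was found in 1 of the 10, that of ACTL6A, and in 31.9% of all windows. None of the 10 held the E-box CACGTG (6.39% of all windows), the AP-1 letters TGAGTCA (2.9%), the octamer ATGCAAAT (1.24%) or the E2F letters TTCCCGCC (2.88%), searched on both strands. A match is a description of letters and not of a bound factor.

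The other subunits of BAF and of its related forms PBAF and ncBAF were taken as a list of 21 genes, of which 19 were in the table and 16 were tested. Of these 16 genes, 7 were called higher, 2 lower and 7 did not pass, with a median log2 fold change of 0.48. Over all genes tested, 30.3% were called higher and 21.5% lower, 51.7% in all, with a median of 0.20. The largest increases were those of BCL7A, which belongs to the BCL7 family of small BAF subunits, and BCL11A, a zinc finger factor that associates with BAF. BCL7A had 2.39, 1.93 and 1.07 FPKM in PEFs and 18.5, 11.2 and 14.3 FPKM in piPSCs (2.49 ± 0.27 on the log2 scale in limma, SE, adjusted p = 0.000855). It was low in every fibroblast line and near the level of ARID1A or SMARCD1 in piPSCs. BCL11A had 6, 7 and 7 fragments in PEFs and 628, 556 and 108 fragments in piPSCs, so that it went from near the detection floor of 3 fragments to 6.12, 6.86 and 1.44 FPKM (limma adjusted p = 0.00732). SS18L1, a paralogue of the subunit SS18, rose by 1.35 on the log2 scale (limma adjusted p = 0.015), while SS18 itself had 0.53 (limma adjusted p = 0.0647). The call of SS18L1 was lost without PEF7 (1.23, limma adjusted p = 0.0518) and without line 8 (1.23, limma adjusted p = 0.0737).

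Among subunits of the related forms, PHF10 and BRD7 of PBAF rose by 1.13 and 0.85 on the log2 scale (limma adjusted p = 0.00428 and 0.00341). The PBAF subunits PBRM1 (0.43) and ARID2 (0.41) did not pass the test. BRD9, the bromodomain subunit of ncBAF, rose by 0.85 (limma adjusted p = 0.00369), and BICRAL, one of the alternative GLTSCR1-type subunits of ncBAF, was lower (-0.93, limma adjusted p = 0.0152), whereas BICRA had 0.36 (limma adjusted p = 0.155). BICRAL had 4.60, 3.22 and 3.88 FPKM in PEFs and 1.90, 1.09 and 1.73 FPKM in piPSCs, without overlap, and its adjusted p was 0.0562 without PEF5 and 0.0528 without line 8. SMARCB1, a core subunit of BAF and PBAF, rose by 0.78 (limma adjusted p = 0.00957), and missed the threshold with equal sums (0.53, limma adjusted p = 0.0608). ACTB, which is a BAF subunit but mostly cytoskeletal actin, fell from 837 ± 159 to 283 ± 28.7 FPKM (SD, n = 3). BCL7B had 0, 2 and 2 fragments in piPSC5, piPSC7 and piPSC8 and 2, 9 and 3 fragments in PEFs, at or near the floor, and was not tested.

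**Figure D4:**
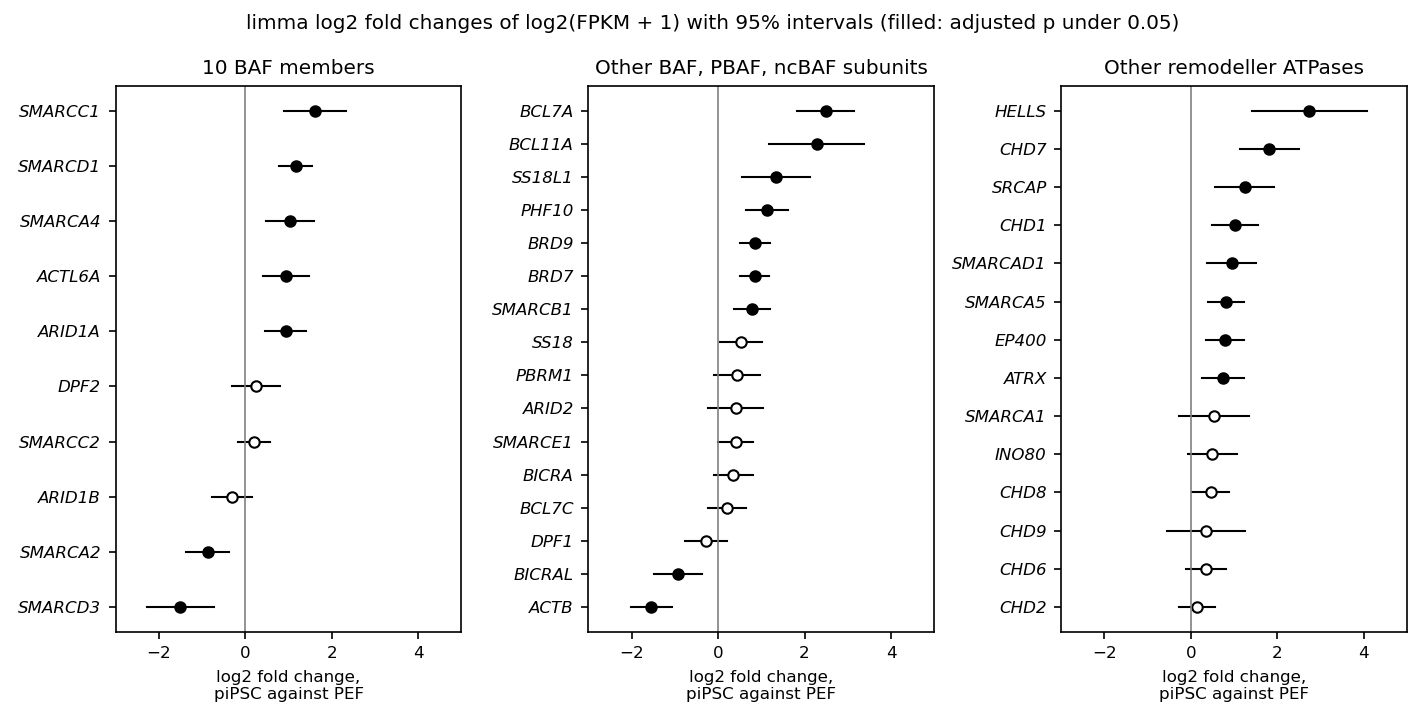
limma log2 fold changes of piPSCs against PEFs on log2(FPKM + 1) (horizontal axes) with 95% intervals for the 10 BAF genes, the 16 other subunits and the 14 other remodeller ATPases tested, filled where the adjusted p is under 0.05. The 10 BAF genes run from -1.50 for SMARCD3 to 1.62 for SMARCC1, and no other ATPase is below 0 as deposited, although CHD2 is at -0.10 with the median ratio.

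As a point of reference for the motors, 14 ATPases from outside BAF and NuRD, another remodelling complex, were set beside SMARCA4 and SMARCA2. Of these, 8 were called higher, 6 did not pass and 0 were lower at an adjusted or an unadjusted p under 0.05 in limma or by voom, with a median log2 fold change of 0.77. SMARCA2 was thus the single gene with a lower call among the 16 ATPases considered, those of NuRD not included. In this comparison 30.3% of all genes tested were called higher and 21.5% lower. SMARCA5, the ISWI motor, was the most abundant of the 14 and was at levels like those of SMARCA4, with 29.6 ± 5.06 FPKM in PEFs and 52.3 ± 4.26 FPKM in piPSCs (SD, n = 3). HELLS, an ATPase tied to DNA methylation, had the largest increase of the 14 (2.74 on the log2 scale, limma adjusted p = 0.00748), and its log2 ratios within lines were 1.29 in line 5, 3.29 in line 7 and 3.65 in line 8. CHD7 (1.81), SRCAP (1.24), CHD1 (1.02), SMARCAD1 (0.94), EP400 (0.79) and ATRX (0.74) were also called higher, with limma adjusted p values from 0.00298 for CHD7 to 0.0206 for ATRX. When libraries were brought to equal sums, 4 of the 14 were called higher, and 3 without line 8. ATRX also lost its call without PEF7, PEF8 or piPSC5 (limma adjusted p = 0.069, 0.0605 and 0.0729), and SMARCAD1 without piPSC5 (limma adjusted p = 0.0589). ATRX lies on the X chromosome, and the Y-linked DDX3Y differed between lines, but a part of sex in its values was not tested.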

How the data were processed

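The authors deposited 1 table of FPKM per gene on Sscrofa11.1. The submitters' processing notes name Bowtie2 2.2.3, HISAT2 2.1.0 and HTSeq 0.6.0, and the annotation release is not given in the sources used here. Library totals were read from features under 200 bp, and with them each FPKM value came out as a whole number of fragments (within 0.001) for 100% of genes. Floors of 3 fragments cover counting error only. PEFs and piPSCs were compared on log2(FPKM + 1) by limma 3.58.1 (R 4.3.3) without a block, and with a block on line as an alternative. The study's statistics section names an unpaired test, while its RNA-seq comparisons set each piPSC line against its own PEF line. Other values came from Python 3.11.15 (numpy 2.4.6; pandas 2.3.3; scipy 1.17.1). Libraries of the same number share an animal, and their deviations from group means correlated at 0.0921, 0.0946 and 0.08, against -0.121 to 0.0553 for other numbers.

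The BAF genes and the lists of other subunits, other ATPases and markers were chosen with earlier results of these data known. Named genes were all 10 BAF genes and, of the 2 further gene lists, up to 10 genes each, those called with the largest changes first and any at the floor in a group. SS18, PBRM1, ARID2 and BICRA were named after their values were seen. Coding sequences and upstream windows came from RefSeq (Sscrofa11.1), where all 10 BAF genes were matched by symbol and overlapped the deposited positions. Of the 10 upstream windows, 3 are printed. Further alternatives were another pseudocount (0.1), other filters, scaling by the median ratio, sums or quantiles, no trend, voom on the recovered fragments, and left-out libraries.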

Additional observations from a re-analysis of the deposited data

Results flagged for a closer look

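For DPF2 and SMARCC2 the ratios of the lines differed in sign. The log2 ratio of (FPKM + 1) of a piPSC line over its own PEF line was 0.66 in line 5, 0.13 in line 7 and -0.039 in line 8 for DPF2. For SMARCC2 it was 0.35 in line 5, -0.012 in line 7 and 0.29 in line 8. With 1 library on each side, the difference between lines was not tested, and the values below 0 are close to it.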

How the results depend on the processing

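The direction of the 7 called BAF genes was kept under all 16 alternatives to the fit. Leaving out each library in turn left 5 BAF genes higher and 2 lower each time. Without both libraries of line 8, 3 were higher. Scaling by the median ratio or by equal sums turned DPF2 to -0.012 and -0.059, SMARCC2 to -0.050 and -0.10, BCL7C to -0.050 and -0.10 and CHD2 to -0.10 and -0.16, and called none of them. Of the other subunits, 1 or 2 were called lower when single libraries were left out, 1 being the count without PEF5, and 1 was called lower without line 8. The other subunits called higher were 6 with equal sums. Of the other ATPases, 4 were called higher with equal sums and 3 without line 8. Over all genes, equal sums gave 2627 higher and 3383 lower. The log2 ratio difference of SMARCD1 to SMARCD3 was 2.67 with (FPKM + 1) in place of FPKM. With a replicate block, 5 BAF genes were called higher and 2 lower, and over all genes 3483 higher and 2450 lower, while the counts of the other subunits and the other ATPases stayed at 7 higher and 2 lower and at 8 higher and 0 lower. Sign-flip tests within lines gave p = 0.25 for each paralogue pair, the smallest such an exact test can give for 3 lines. The causes were not tested. Depth limits SMARCD3, at 16 to 63 fragments in piPSCs.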
